A study of Mus musculus with 12 samples.

Results

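The 36 genes described here encode ribosome biogenesis factors, the proteins that transcribe ribosomal RNA, modify it and assemble it with ribosomal proteins in the nucleolus. They were taken from a list of symbols on the basis of known function and matched to Ensembl gene IDs, and all 36 were found among 56691 mouse gene IDs. All 36 also passed the filter on low counts that left 13230 genes for testing. R1 129 male mouse embryonic stem cells (129/Sv background) were grown on gelatin-coated plates in serum and LIF, the cytokine that sustains self-renewal. RNA was taken on day 0, from cells the submitters call primed, and after 6 days in 2i, in 2i with 25 µM of a compound labelled MRE11i, or in 2i with 50 µM of it. Each of the 4 groups had 3 libraries, made with a kit that sequences the 3′ ends of polyadenylated transcripts. All groups come from 1 male line, no group was kept for 6 days without 2i, and none received the inhibitor without 2i, so time in culture and 2i cannot be told apart. The labels do not say whether the libraries of a group come from separate cultures, so p-values speak only of the spread among the libraries.

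Ribosome production starts with RNA polymerase I, which transcribes the ribosomal RNA precursor in the nucleolus. Small nucleolar RNAs then guide chemical modification of the transcript within box C/D particles, which methylate the ribose, and box H/ACA particles, which make pseudouridine, while processing complexes cut the precursor and build the small and the large subunit along separate routes. MYC proteins are well known activators of these genes. 2i is the usual name for a medium with inhibitors of MEK and of GSK3, which holds embryonic stem cells in a naive state, and MRE11 is a nuclease of DNA double-strand break repair.

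The libraries held 5894561 to 7060126 counts on genes, and the least counted of the 36 genes in any library, Rrp12, had 203. Levels are given as CPM, counts divided by the library total after scaling of library sizes by the trimmed mean of M-values (TMM). The summed level of 10 pluripotency markers was 4373 to 5067 CPM in all 12 libraries, none of the 10 at 0, although Pou5f1, a defining marker, had group means of only 6.52 to 8.38 CPM. In each group the library numbered 1 stood apart: the chi-square per degree of freedom between 2 replicates was 10.1 to 13.5 where it included number 1 and 2.69 to 7.53 between numbers 2 and 3. The mitochondrial share of counts was also highest in number 1 of each group, at 5.3%, 5.38%, 5.69% and 6.82%, against 4.54% to 5.42% in the other 8 libraries.

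The biogenesis factors took part in that difference between libraries. For 12 of the 36 (33.3%), library 1 had the highest CPM of the 3 in all 4 groups, and for none was it the lowest in all 4, against 7.7% and 5.9% of all genes tested. Nop56, a core protein of box C/D particles, was on average 0.44 (log2) higher in library 1 than in the mean of libraries 2 and 3, and between 0.33 and 0.52 higher in each group. Wdr43, a small-subunit processing factor, was 0.43 higher on average, Gnl3 (nucleostemin, a nucleolar GTPase) 0.36 higher, Nolc1, a chaperone of nucleolar particles, 0.35 higher and Ncl (nucleolin) 0.33 higher. Polr1b, a core subunit of RNA polymerase I, went the other way in all 4 groups, at -0.22 on average and -0.34 to -0.09 by group. Values with only the libraries numbered 2 and 3, and differences within a number, are therefore given where they bear on a result, and every call of the 36 genes that changed with only numbers 2 and 3 is named in its comparison.

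**Figure D1:**
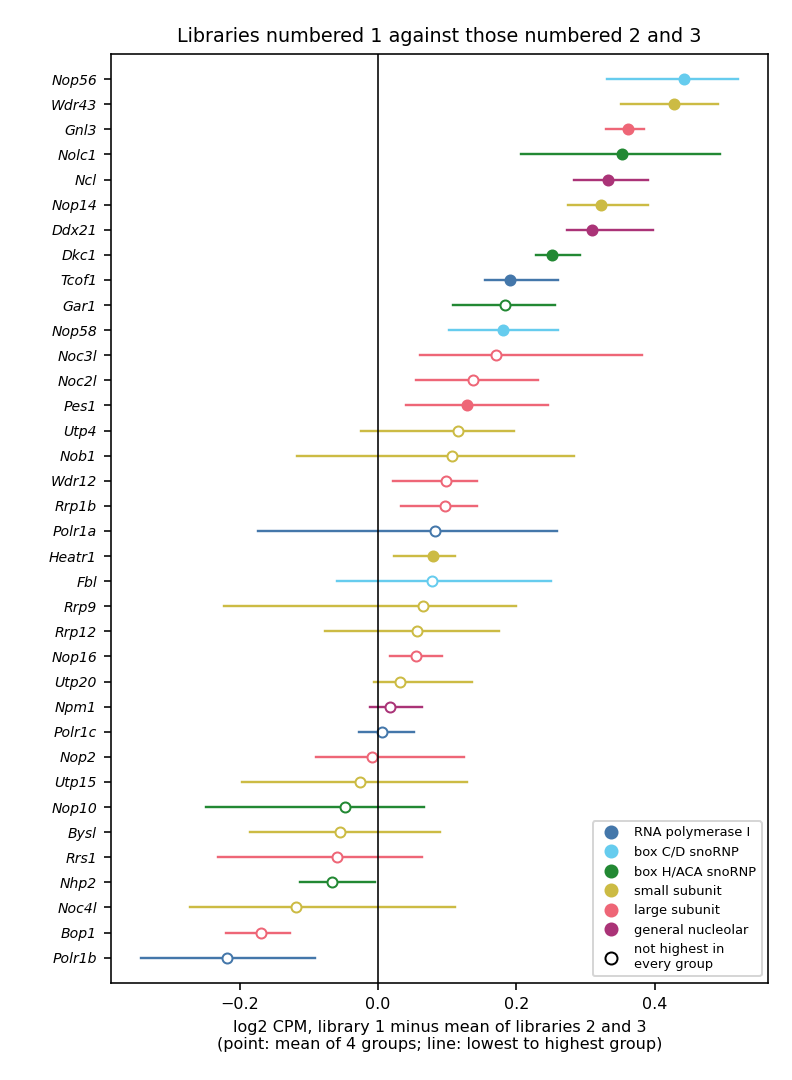
Difference in log2 CPM between the library numbered 1 and the mean of libraries 2 and 3 of the same group, for each of the 36 genes; points are means over the 4 groups, lines run from the lowest to the highest group, and filled points mark the 12 genes for which library 1 was highest in every group. Nop56, Wdr43 and Gnl3 lie furthest to the right, and Polr1b and Bop1 furthest to the left.

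A 6-day culture in 2i went with lower transcript levels of many biogenesis factors. Of the 36 genes, 17 fell and 0 rose at an adjusted p below 0.05 (edgeR quasi-likelihood test, Benjamini-Hochberg over all 13230 genes). Over all genes tested, 20.4% fell and 20.0% rose. The median log2 fold change of the 36 was -0.28, beside -0.01 over all genes tested, and 32 of the 36 values were below 0, under TMM, size-factor scaling and plain library totals alike. At an unadjusted p below 0.05 (edgeR), 0 of the 36 were higher and 20 lower, beside 23.7% and 23.7% of all genes. DESeq2 and limma voom each called 0 higher and 19 lower. Over all genes DESeq2 called 18.2% higher and 19.1% lower, and limma voom 19.8% and 20.4%.

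The direction was the same within each replicate number. The median difference of the 36 genes was -0.27 between the libraries numbered 1, -0.30 between those numbered 2 and -0.22 between those numbered 3, and 30 of the 36 genes were lower in 2i in all 3, beside 34.1% of all genes tested. With only the 8 libraries numbered 2 and 3, 18 genes were lower and 0 higher. The count depended on single libraries: it was 10 without 2i replicate 2, 13 without 2i replicate 3 or primed replicate 1, and up to 19 without 2i replicate 1. The summed level of 12 fibroblast or feeder markers moved with the groups, from 59.3 to 112 CPM in primed cells to 27.0 to 31.7 in 2i, 14.2 to 19.6 at 25 µM and 8.09 to 10.3 at 50 µM. Of these 12, Lum, Dcn and Postn were at 0 in every primed library, while Col1a1 averaged 25.4 CPM there and 7.13 CPM in 2i. The part of these cells in the result was not tested, and fewer cells of a type and less RNA per cell cannot be told apart in bulk samples.

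**Figure D2:**
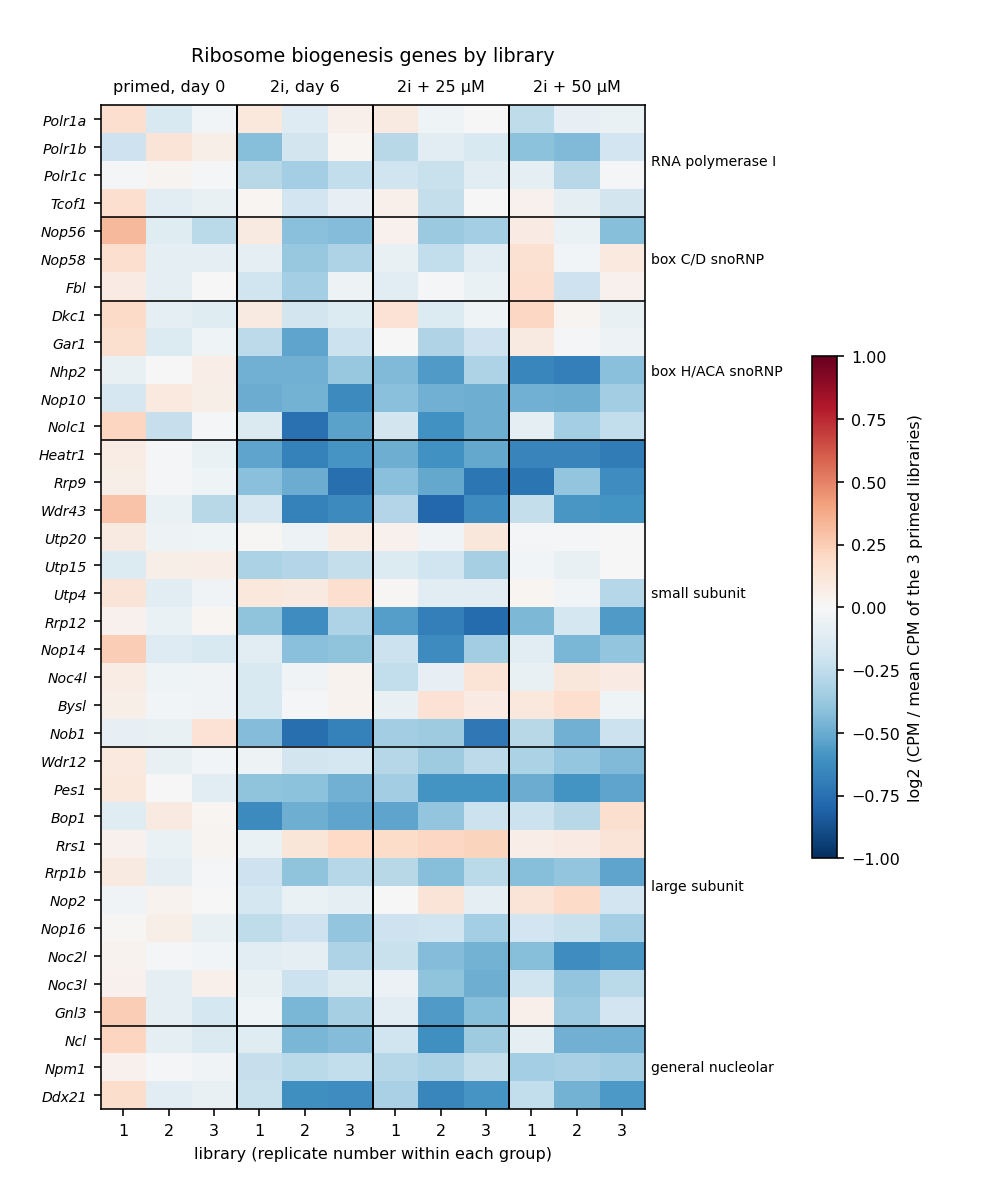
Log2 ratio of the CPM in each of the 12 libraries to the mean CPM of the 3 primed libraries, for the 36 genes in rows grouped by role; blue is lower and red higher than the primed mean. Heatr1, Rrp9, Nop10, Nob1 and Pes1 are blue in all 9 libraries of the 2i groups, Utp20 and Bysl stay near white, and Nop56, Gnl3 and Ncl are redder in library 1 of each group.

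Among the 4 polymerase I genes, 1 fell. Polr1c, a subunit shared by RNA polymerases I and III (GRCm38 chr17:46243920-46248054, minus strand; positions of the other genes are in the same build), had 196, 201 and 195 CPM in the primed libraries and 163, 155 and 166 CPM in 2i, a log2 fold change of -0.29 ± 0.09 (SE, n = 3 a group; adjusted p = 0.00887). The groups did not overlap, but the call was lost without 2i replicate 2 (adjusted p = 0.0519). Polr1a, the largest subunit, had a fold change of 0.01 ± 0.10 and Polr1b of -0.19 ± 0.12, neither called, and Polr1b was at -0.17 (adjusted p = 0.271) with only the libraries numbered 2 and 3. Tcof1 (treacle), which links polymerase I transcription to early rRNA modification, was among the more abundant genes not called, at -0.08 ± 0.10.

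Of the 5 box H/ACA proteins, 4 fell. Nop10 (chr2:112261926-112263269, plus strand), a small core protein of these particles and of telomerase, had 278, 336 and 326 CPM in primed cells and 222, 225 and 202 CPM in 2i. It was lower in each 2i library than in any primed one, with a log2 fold change of -0.54 ± 0.09 (SE, n = 3 a group; adjusted p = 3.99e-05). Nhp2 (chr11:51619735-51623714, plus strand), another core protein, went from 281, 297 and 311 CPM to 213, 213 and 227 CPM, again without overlap. Its log2 fold change was -0.45 ± 0.09 (SE, n = 3 a group; adjusted p = 4.28e-04), and its exons overlap those of Rmnd5b on the opposite strand. Gar1, a further small protein of the particle, fell by 0.33 on the log2 scale (adjusted p = 0.014) and lost the call without primed replicate 1 or 2i replicate 2 (adjusted p up to 0.112). Nolc1 was called at -0.46 ± 0.15 (adjusted p = 0.0246), although 341 CPM in 2i replicate 1 lay above 321 CPM in primed replicate 2. It lost the call without any one of primed replicates 1 and 3 and 2i replicates 2 and 3 (adjusted p up to 0.111). Within numbers 1, 2 and 3 the log2 differences of Nolc1 were -0.36, -0.51 and -0.52, and with only numbers 2 and 3 it was at -0.51 (adjusted p = 2.55e-04). Dkc1 (dyskerin), the pseudouridine synthase of the same particles, had 702, 580.3 and 566 CPM in primed cells and 657, 543 and 562 CPM in 2i, which overlapped, at -0.07 ± 0.11 (adjusted p = 0.636).

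Of the 3 box C/D proteins, 1 fell. Nop58 (chr1:59684971-59719044, plus strand), a core protein of these particles, had 1088, 912 and 905 CPM in primed cells and 905, 746 and 780.1 CPM in 2i, where replicate 1 reached just under the lowest primed library. The log2 fold change of Nop58 was -0.26 ± 0.10 (SE, n = 3 a group; adjusted p = 0.0368), and it was no longer called without primed replicate 1 or without 2i replicate 2 or 3 (adjusted p up to 0.221) or with only the libraries numbered 2 and 3 (-0.24, adjusted p = 0.0535). Nop56 was at -0.23 ± 0.20 and Fbl (fibrillarin, the methyltransferase) at -0.20 ± 0.10, neither called, and Nop56 was not called with only the libraries numbered 2 and 3 either (-0.23, adjusted p = 0.0957). Reads of Nop56 may be shared with Idh3b on the opposite strand, and both Nop56 and Fbl have near-identical processed copies elsewhere.

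Of the 11 small-subunit factors, 5 fell and 0 rose, among them Heatr1, the gene with the lowest p of the 36. Heatr1 (chr13:12395027-12440289, plus strand), a factor needed for polymerase I transcription and early processing, had 149.6, 141 and 136 CPM in the primed libraries and 98.9, 88.9 and 94.3 CPM in 2i. The groups stood well apart, at a log2 fold change of -0.60 ± 0.08 (SE, n = 3 a group; adjusted p = 5.38e-06). Nob1 (chr8:107412486-107425051, minus strand), the endonuclease that makes the final cut of the small-subunit rRNA, went from 106, 106 and 124 CPM to 83, 66.4 and 70.0 CPM. All 3 libraries of 2i were lower, with a log2 fold change of -0.61 ± 0.12 (SE, n = 3 a group; adjusted p = 1.66e-04). Rrp9 (chr9:106475963-106485424, plus strand), a protein of the U3 particle, had 107, 102 and 99.9 CPM and then 77, 73.3 and 61.3 CPM. With no overlap, its log2 fold change was -0.55 ± 0.11 (SE, n = 3 a group; adjusted p = 3.17e-04). Rrp12 (chr19:41862851-41896173, minus strand), which serves the export of both subunits, had 54.7, 50.6 and 53.7 CPM in primed cells and 40.1, 34.5 and 42.8 CPM in 2i. Its log2 fold change was -0.44 ± 0.12 (SE, n = 3 a group; adjusted p = 0.00414).

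Heatr1, Nob1, Rrp9 and Rrp12 kept their calls whichever library was left out, with adjusted p of at most 0.000118, 0.00208, 0.00394 and 0.0353. Heatr1 and Rrp9 lie over exons of Lgals8 and Parp3 on the opposite strand, both with few counts. Bop1 and Wdr12 overlap Mroh1 and Carf, also with few counts, and Wdr12 shares sequence near its transcript end with Pms1. Bysl, Gnl3 and Dkc1 overlap the well counted Ccnd3, Pbrm1 and Mpp1 in the same way, and since it is not known here whether reads were counted by strand, values of such pairs are uncertain. Utp15, a part of the early transcription-linked processing complex, fell by 0.28 (adjusted p = 0.0255) and was not called in 4 of the 6 fits that left out a library. Wdr43, of the same complex, had 554, 433 and 374 CPM in primed cells and 404, 283 and 291 CPM in 2i. Library 1 of 2i lay between the primed values, and Wdr43 was not called at -0.47 ± 0.18 (adjusted p = 0.0527). Within replicate numbers Wdr43 had log2 differences of -0.45, -0.61 and -0.36, and with only the libraries numbered 2 and 3 it was called (-0.48, adjusted p = 3.24e-04). Nop14, another small-subunit factor, was not called at -0.30 ± 0.13 but was with only the libraries numbered 2 and 3 (-0.26, adjusted p = 0.0439), while Utp20, Utp4, Noc4l and Bysl lay between -0.05 and 0.12 and overlapped.

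Of the 10 large-subunit factors, 4 fell and 0 rose. Pes1 and Bop1 work with Wdr12 in a single complex that matures the large-subunit rRNA, and 2 of these 3 fell. Pes1 (chr11:3963975-3980004, plus strand) had 185, 172 and 159 CPM in primed cells and 130.1, 129.7 and 124 CPM in 2i, a log2 fold change of -0.43 ± 0.09 (SE, n = 3 a group; adjusted p = 5.24e-04). Bop1 (chr15:76452989-76477277, minus strand) had 65.2, 75.6 and 71.8 CPM in primed cells and 45.6, 50.5 and 49.2 CPM in 2i, all below the lowest primed library. The log2 fold change of Bop1 was -0.55 ± 0.12 (SE, n = 3 a group; adjusted p = 6.87e-04), and both genes were called whichever library was left out. Wdr12 had -0.14 ± 0.08 and was not called (adjusted p = 0.201). Rrp1b (chr17:32036100-32062865, plus strand), a nucleolar protein, had 197, 174 and 183 CPM and then 160.1, 139.7 and 152 CPM. Rrp1b was at -0.30 ± 0.09 (SE, n = 3 a group; adjusted p = 0.00868), lost the call without 2i replicate 2 (adjusted p = 0.0638), and lies over exons of Hsf2bp, itself well counted, on the opposite strand. Nop16, a large-subunit assembly factor, fell by 0.28 (adjusted p = 0.0167), not called without primed replicate 2 or 2i replicate 3.

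The 6 others of this role did not pass the test. Gnl3, the most abundant of them, had 565, 444 and 421 CPM in primed cells and 462, 347 and 378 CPM in 2i and a fold change of -0.27 ± 0.14. Library 1 of 2i exceeded libraries 2 and 3 of primed cells, while within numbers the log2 differences of Gnl3 were -0.29, -0.36 and -0.15. With only numbers 2 and 3 Gnl3 was at -0.25 (adjusted p = 0.0535). Noc2l and Noc3l, partners in the export of large-subunit precursors, had -0.17 ± 0.09 and -0.14 ± 0.11, Nop2, an rRNA methyltransferase, -0.11 ± 0.10 and Rrs1, an early assembly factor, 0.09 ± 0.09.

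Of the 3 abundant general nucleolar proteins, 2 fell. Ddx21 (chr10:62580251-62602281, minus strand), an RNA helicase, had 910.4, 743 and 764 CPM in primed cells and 691, 526 and 524 CPM in 2i. Its log2 fold change was -0.47 ± 0.12 (SE, n = 3 a group; adjusted p = 0.00381) and remained called whichever library was left out. Npm1 (nucleophosmin, a nucleolar chaperone) went from 7177, 6926 and 6814 CPM to 5928, 5796 and 5865 CPM, a tight and separate pair of groups. The log2 fold change of Npm1 was -0.25 ± 0.08 (SE, n = 3 a group; adjusted p = 0.0135), with an adjusted p of up to 0.0672 without single libraries (primed 1, 2i 2 or 2i 3) and of 0.0783 with only the libraries numbered 2 and 3, and processed copies of Npm1 held few counts. Ncl had 5856, 4737 and 4579 CPM in primed cells and 4655, 3683 and 3750 CPM in 2i, where replicate 1 overlapped the primed range. It was not called at -0.33 ± 0.13 (adjusted p = 0.0583), had log2 differences of -0.33, -0.36 and -0.29 within numbers 1 to 3, and was called with only the libraries numbered 2 and 3 (-0.32, adjusted p = 0.019).

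**Figure D3:**
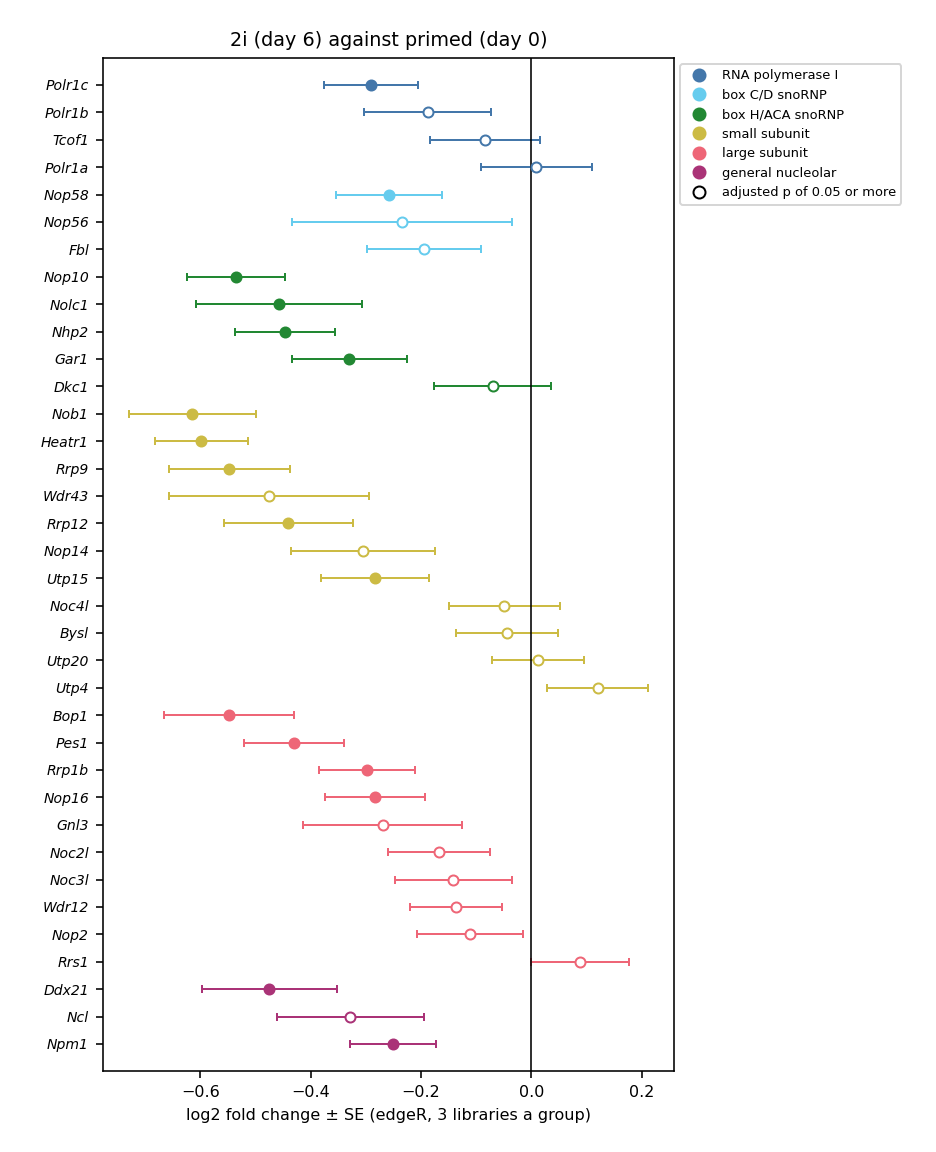
Log2 fold change of each of the 36 genes between 2i and primed cells (points, with bars of 1 SE), grouped by role; filled points have an adjusted p below 0.05. Nob1 at -0.61 and Heatr1 at -0.60 lie furthest to the left, and Utp4 at 0.12 furthest to the right.

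Other ribosome biogenesis genes were counted from a separate list. Of 137 measured genes, 55 fell, 3 rose and 79 were not called, with a median log2 fold change of -0.21. Further small nucleolar particle genes were lower in 7 of 9 cases and large-subunit factors in 25 of 54, while 1 of 9 other polymerase I genes fell and 1 rose. The 3 lower genes with the smallest p were Ebna1bp2, a large-subunit factor (-0.88 ± 0.08, adjusted p = 1.22e-08), the exosome subunit Exosc7 (-1.19 ± 0.11, adjusted p = 1.97e-08) and Wdr74 (-0.81 ± 0.10, adjusted p = 1.66e-06). The 3 that rose were Xrn2, a nuclear exonuclease (0.74 ± 0.08), Ttf1, the polymerase I termination factor (0.42 ± 0.13), and Ccdc86 (0.31 ± 0.10). Of 78 ribosomal protein genes, 11 fell and 1 rose, at a median of -0.15.

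MYC proteins activate many of these genes, and of the 4 genes for the family and its partner, 2 fell, 1 rose and 1 was not called. Myc itself had 14.7, 9.38 and 13.4 CPM in primed cells and 1.07, 0.588 and 0.804 CPM in 2i, a log2 fold change of -3.90 ± 0.42 (adjusted p = 2.97e-07). Mycn went from 181, 239.5 and 241 CPM to 77.5, 91.7 and 65 CPM, at -1.50 ± 0.15, and Mycl from 7.59, 11.4 and 12.7 CPM to 23.7, 24.5 and 31.4 CPM, at 1.33 ± 0.17. Max, their dimerisation partner, was not called at -0.15 ± 0.09. All 3 libraries of 2i lay outside the primed range for each of these 4 genes.

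Promoter windows from RefSeq (GRCm38.p6, 250 bases before to 50 after the start site) were present for 30 of the 36 genes and were searched on both strands for 4 short motifs. CACGTG, the canonical E-box that MYC-MAX and other factors bind, was in 5 of the 30 (16.7%: Pes1, Wdr43, Utp4, Nop2 and Utp20), against 8.09% of 27025 genes with a window and 23 of 116 other biogenesis genes. It is its own reverse complement. Of these 5 genes only Pes1 was called lower in 2i. Wdr43 was at -0.475 and not called, but was called lower with only the libraries numbered 2 and 3 (edgeR, adjusted p = 3.24e-04). CACGCG, a variant E-box that reads as CGCGTG on the other strand, was in 10 of 30 (33.3%), against 10.5% of all genes and 36 of 116 (31.0%) other biogenesis genes. It was in 8 of the 14 genes with a window that fell in 2i and in 2 of the 16 others, a split looked at after the calls were known. CCGGAAG, the core bound by ETS factors, was in 9 of 30, against 9.93% of all genes and 54 of 116 (46.6%) other biogenesis genes, and GCATGCGC, part of the NRF1 motif, in 1 of 30 (3.33%, against 3.05% and 10 of 116 other biogenesis genes). Between the 14 genes that fell and the 16 others, CCGGAAG was in 5 and 4 and GCATGCGC in 1 and 0. CACGTG split the opposite way from CACGCG, in 1 of the 14 and 4 of the 16, with Wdr43 counted among the 16. Such windows differ in base composition, and a match is a stretch of letters, not a bound site.

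The stretches below hold CACGTG, in capitals, in 3 of the 5 genes. A match was shown only if it ended at most 30 bases past the start site of RefSeq or GENCODE, whichever comes first. Wdr43 and Utp20 had no such match. Pes1 fell in 2i, whereas Nop2 and Utp4 had values of -0.11 and 0.12.

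Pes1 (chr11:3963947-3964004, plus strand): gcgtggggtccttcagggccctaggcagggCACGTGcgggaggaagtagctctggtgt

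Utp4 (chr8:106893625-106893665, plus strand): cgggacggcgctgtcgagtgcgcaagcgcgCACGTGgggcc

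Nop2 (chr6:125131793-125131858, plus strand): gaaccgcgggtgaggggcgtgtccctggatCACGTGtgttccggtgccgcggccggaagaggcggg

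The motif starts 2 bases after the start site in Pes1, 15 after it in Utp4 and 60 before it in Nop2. The next stretches hold the variant E-box in either orientation, in capitals, under the same limit on position. They come from 4 of the 8 genes with this motif that fell in 2i, chosen after their values were seen.

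Nop10 (chr2:112261920-112261955, plus strand): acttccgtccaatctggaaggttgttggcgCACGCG

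Pes1 (chr11:3963725-3963763, plus strand): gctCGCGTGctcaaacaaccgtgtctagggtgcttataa

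Polr1c (chr17:46248179-46248250, minus strand): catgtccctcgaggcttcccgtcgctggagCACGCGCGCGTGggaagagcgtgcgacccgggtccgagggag

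Nolc1 (chr19:46075792-46075857, plus strand): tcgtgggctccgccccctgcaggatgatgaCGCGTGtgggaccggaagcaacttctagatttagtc

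In Polr1c both orientations stand next to each other, starting 175 and 169 bases before the start site. In Nolc1 the motif starts 25 bases before the start site, in Pes1 247 before it and in Nop10 24 after it.

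At 25 µM the inhibitor went with no called change in these genes. None of the 36 rose and none fell against 2i alone by edgeR, with or without the replicate number as a block, by DESeq2 or by limma voom. At an unadjusted p below 0.05 (edgeR), 0 were higher and 1 was lower, beside 6.7% and 6.36% of all genes. Called changes were few over all genes too: 0.454% rose and 0.484% fell by edgeR, and 2.48% and 2.26% in the fit with the block. Log2 fold changes ran from -0.23 for Rrp12 to 0.17 for Bop1, with a median of 0.02 beside 0.00 over all genes tested, and with SEs of 0.08 to 0.20 changes of this size could not be resolved.

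The 4 most abundant genes show the spread. Npm1 had 5713, 5605 and 5912 CPM at 25 µM (-0.03 ± 0.08), Ncl 4402, 3306 and 3960 CPM (-0.05 ± 0.13), Nop58 921, 817 and 902 CPM (0.12 ± 0.10) and Ddx21 642, 512 and 536 CPM (-0.04 ± 0.12). Each range overlapped that of 2i alone. Of 137 other biogenesis genes 0 were called in either direction, while the fit with the block called 2 higher and 3 lower, and of 78 ribosomal protein genes 1 rose, though 77 of the 78 values were above 0 (75 with library totals). With the block, 16 ribosomal protein genes rose. Myc had 1.57, 0.487 and 0 CPM at 25 µM, Mycn 84.5, 91.5 and 68.4 CPM, Mycl 23.5, 22.6 and 20.7 CPM and Max 171, 149.3 and 169 CPM, and none of the 4 was called against 2i.

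At 50 µM, 3 of the 36 genes rose and 1 fell against 2i alone (edgeR), while 7.01% of all genes rose and 8.07% fell. The number higher was 0 without 50 µM replicate 3 and 1 without 50 µM replicate 1 or 2i replicate 1 or 2. In these fits 3.73% to 4.39% of all genes rose. The number lower was 2 without 50 µM replicate 1, beside 6.0% of all genes. The median log2 fold change of the 36 was 0.02, beside 0.01 over all genes, and -0.04 beside -0.06 with library totals. Same-numbered libraries of the 6-day groups deviated together, which the main fit did not take into account. In the fit with the replicate number as a block 6 genes rose and 3 fell, beside 12.1% and 12.4% of all genes. The inhibitor comparisons share the 3 libraries of 2i. The mitochondrial share of counts was higher at 50 µM (5.42% to 6.82%) than in 2i (4.69% to 5.38%), and the summed level of 5 neural markers was 262 to 286 CPM against 174 to 201 CPM. Their part in the result was not tested.

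Bop1 rose the most. It had 45.6, 50.5 and 49.2 CPM in 2i, 49.1, 53.9 and 60.9 CPM at 25 µM and 61, 58.3 and 79.1 CPM at 50 µM, a log2 fold change of 0.45 ± 0.12 at 50 µM (SE, n = 3 a group; adjusted p = 0.0133). Replicate 3 was the highest at 50 µM, and the call was lost without it (0.27, adjusted p = 0.151) or without 2i replicate 1. With only the libraries numbered 2 and 3 the log2 fold change was 0.43 (adjusted p = 0.0263). The range of Bop1 at 50 µM reached into that of primed cells (65.2, 75.6 and 71.8 CPM).

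Nop58 and Gar1, of the box C/D and box H/ACA particles, also rose. Nop58 had 1075, 952 and 1036 CPM at 50 µM against 905, 746 and 780.1 CPM in 2i, at 0.33 ± 0.10 (SE, n = 3 a group; adjusted p = 0.0233). It was higher in each 50 µM library than in any 2i library, and within numbers 1, 2 and 3 by 0.25, 0.35 and 0.41 (log2). Gar1 (chr3:129824912-129831396, minus strand) had 153, 127 and 159 CPM in 2i, 184, 149 and 159 CPM at 25 µM and 195, 182 and 177 CPM at 50 µM, at 0.34 ± 0.10 (SE, n = 3 a group; adjusted p = 0.0325). Both calls depended on single libraries: Nop58 lost it in 4 of the 6 fits that left out a library (adjusted p up to 0.13) and Gar1 in 5 of 6 (up to 0.181), and Gar1 was not called with only the libraries numbered 2 and 3 (0.30, adjusted p = 0.055). With the replicate block their adjusted p was 1.25e-04 and 6.77e-04. Nob1, Utp15 and Nolc1 were called higher with the block (adjusted p = 0.0347, 0.0477 and 0.00573) but not without it, at log2 fold changes of 0.29 ± 0.12, 0.25 ± 0.10 and 0.23 ± 0.15. Nolc1 was also called with only the libraries numbered 2 and 3 (0.32, adjusted p = 0.0399).

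Noc2l was the 1 gene that fell at 50 µM. It encodes a large-subunit factor that also binds histones and p53 (chr4:156236010-156247616, plus strand). Noc2l had 167, 162 and 159 CPM in primed cells, 150.5, 152 and 132 CPM in 2i, 139, 120.1 and 117 CPM at 25 µM and 121, 106 and 108 CPM at 50 µM. All 3 libraries at 50 µM lay below all of 2i, at -0.38 ± 0.09 (SE, n = 3 a group; adjusted p = 0.00835), and the call held whichever library was left out (adjusted p at most 0.0435). Wdr12, the partner of Pes1 and Bop1, had 169.5, 155 and 155 CPM in 2i and 141, 134 and 129 CPM at 50 µM, without overlap. Wdr12 was not called at -0.24 ± 0.08 (adjusted p = 0.0515) but fell in the fit with the block (adjusted p = 0.00889), as did Utp4 (-0.21, adjusted p = 0.021 with the block, and 0.0413 with only the libraries numbered 2 and 3). Within the complex of 3, Bop1 was thus called higher and Wdr12 and Pes1 (-0.11 ± 0.09) had values below 0. Among the abundant genes not called, Npm1 was at -0.09 ± 0.08, Ncl at -0.01 ± 0.13, Ddx21 at 0.05 ± 0.12 and Dkc1 at 0.13 ± 0.11.

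**Figure D4:**
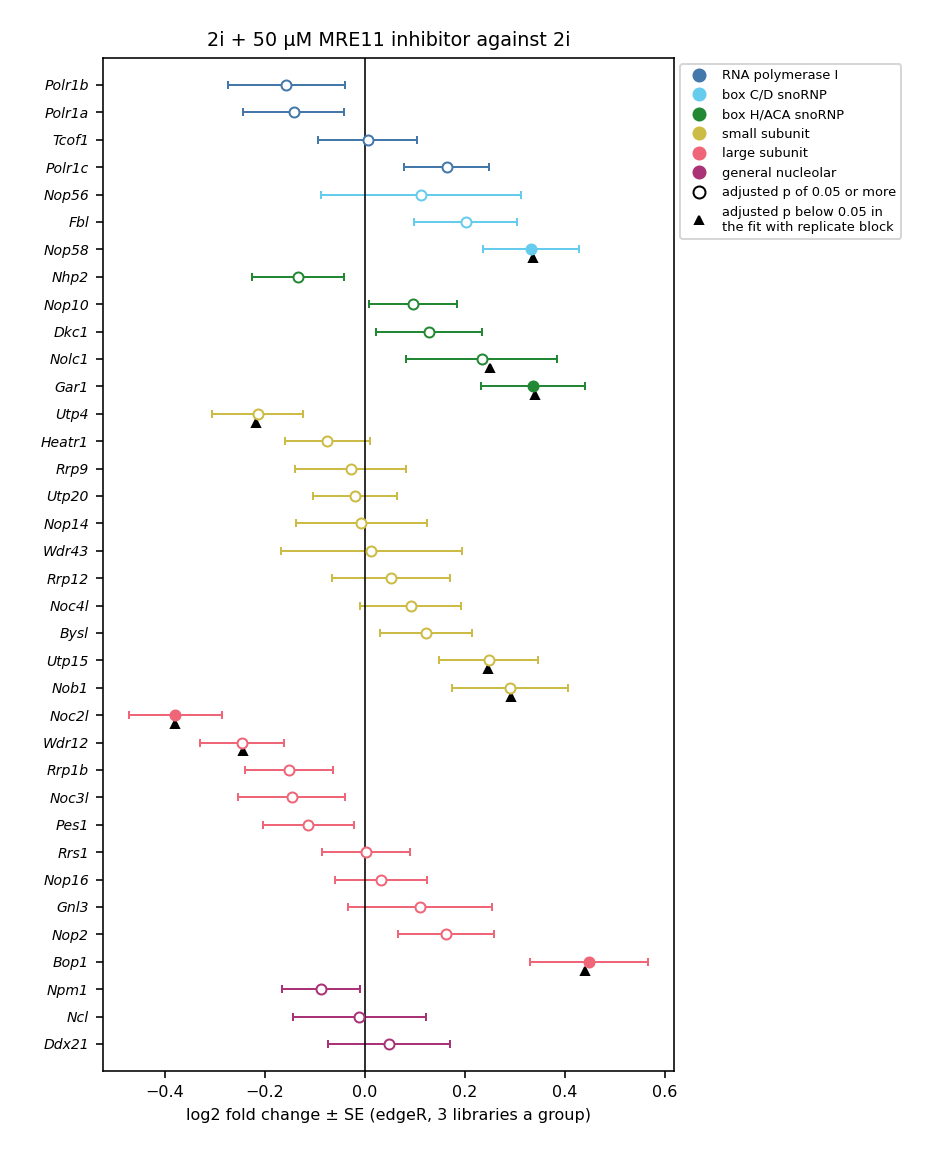
Log2 fold change of each of the 36 genes between 2i with 50 µM MRE11 inhibitor and 2i alone (points, with bars of 1 SE), grouped by role; filled points have an adjusted p below 0.05 and black triangles mark the genes called in the fit with the replicate block. Bop1 at 0.45 lies furthest to the right and Noc2l at -0.38 furthest to the left.

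Among the other biogenesis genes, 5 of 137 rose and 4 fell at 50 µM (11 and 9 with the block), at a median of -0.01. Ubtf, the upstream binding factor of polymerase I, had 118, 90.2 and 116 CPM in 2i and 173, 148 and 176 CPM at 50 µM, at 0.61 ± 0.10 (adjusted p = 4.57e-04). The other two named by p were Ddx51 (0.55 ± 0.12) and Ppan (0.31 ± 0.09), and those lower were Utp3 (-0.53 ± 0.10, adjusted p = 0.0012), the RNA helicase Mtrex (-0.50 ± 0.12) and Wdr36 (-0.26 ± 0.08). Of 78 ribosomal protein genes, 24 rose and 0 fell, at a median of 0.25, and 54 rose with the block. All 78 values were above 0 under TMM, 76 with size-factor scaling and 75 with library totals, which called 15. The difference between these genes and the 36 assembly factors was not tested. Myc had 3.17, 1.94 and 2.26 CPM at 50 µM (1.55 ± 0.54, adjusted p = 0.0567, and 0.0106 with the block), Mycn 81.2, 97.2 and 69.6 CPM, Mycl 16.2, 14.9 and 19.2 CPM and Max 168, 162 and 150.0 CPM. Only Mycl was called without the block, at -0.66 ± 0.16 (adjusted p = 0.0086), and not without 2i replicate 3.

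The doses did not differ from each other by a called gene. Between 50 and 25 µM, 0 of the 36 rose and 0 fell by edgeR, DESeq2 and limma voom, while 0.181% of all genes rose and 0.975% fell by edgeR. At an unadjusted p below 0.05 (edgeR), 3 were higher and 0 lower, beside 4.68% and 7.37% of all genes. With the replicate block, 1 gene rose, Nop58 (0.21, adjusted p = 0.0428), beside 1.27% of all genes higher and 2.83% lower. The values ran from -0.17 for Noc2l to 0.28 for Rrp12, with 0.27 ± 0.12 for Bop1. Of the abundant genes, Nop58 was at 0.21 ± 0.10, Ncl at 0.04 ± 0.13, Npm1 at -0.06 ± 0.08 and Ddx21 at 0.09 ± 0.12.

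**Figure D5:**
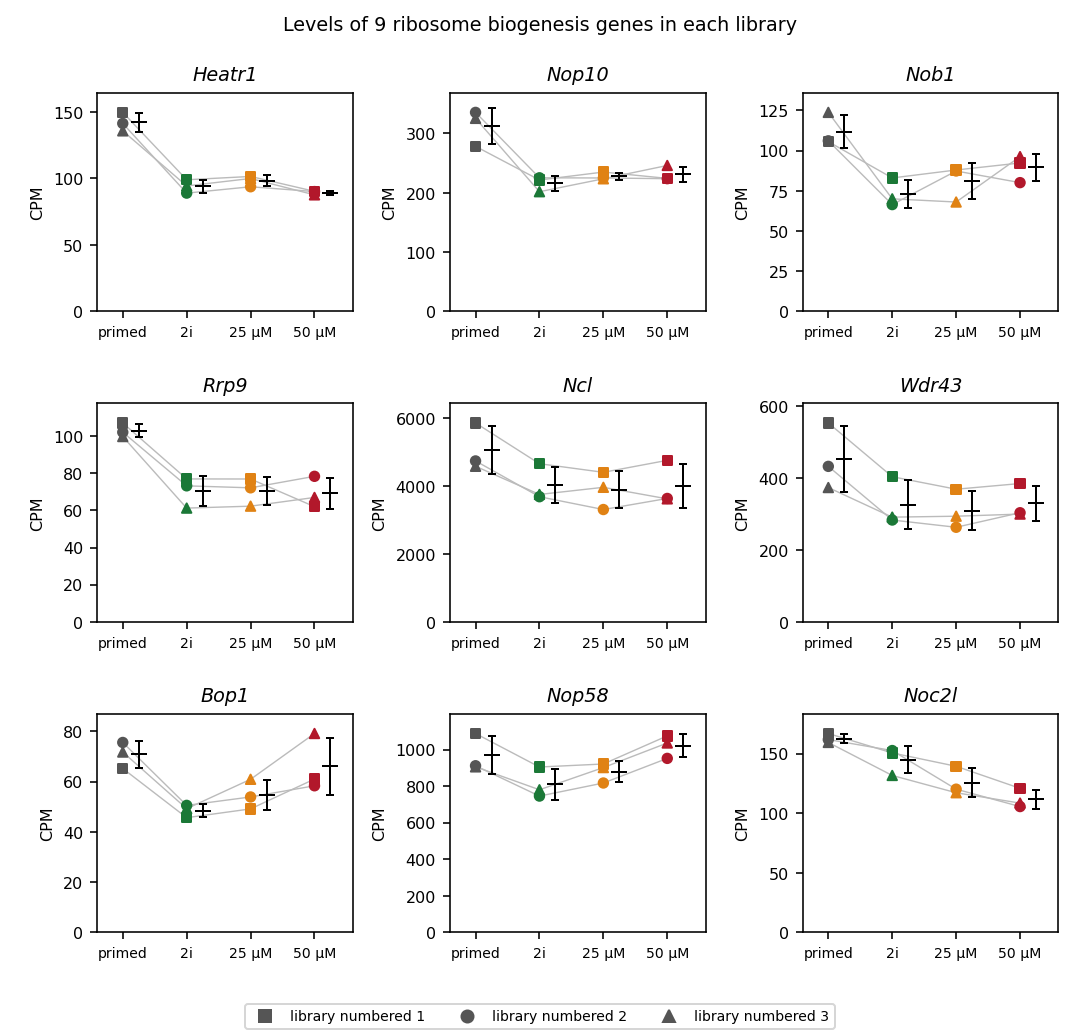
CPM of 9 genes in each library (squares, circles and triangles for libraries numbered 1, 2 and 3, with grey lines joining equal numbers) with the group mean ± SD beside them (black); the 4 groups are primed, 2i, and 2i with 25 or 50 µM inhibitor. Heatr1 and Nop10 are low in all 9 libraries after 6 days, Bop1 and Nop58 are higher at 50 µM than in 2i, and Noc2l is lowest at 50 µM.

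Both inhibitor groups were also set against the primed libraries. At 25 µM, 19 of the 36 were lower than in primed cells and 0 higher, while 21.0% of all genes were lower and 21.3% higher. At 50 µM, 16 were lower and 0 higher, beside 21.7% and 22.6%. DESeq2 and limma voom called 0 higher in both. Over all genes DESeq2 called 18.7% and 19.6% higher at 25 and 50 µM, and limma voom 21.0% and 22.2%. At an unadjusted p below 0.05 (edgeR), 1 was higher and 22 lower at 25 µM, beside 25.0% and 24.4% of all genes. At 50 µM, 0 were higher and 18 lower, beside 26.0% and 24.7%. The medians were -0.29 and -0.24. These comparisons share the primed libraries with that of 2i and repeat no independent measurement of the starting state.

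Heatr1 had 101, 93.6 and 99.9 CPM at 25 µM and 90.2, 90.0 and 87.5 CPM at 50 µM, -0.53 ± 0.08 and -0.67 ± 0.08 against primed (adjusted p = 2.09e-05 and 1.14e-06). Nop10 had 235, 225 and 224 CPM and 224, 224 and 246 CPM, at -0.46 ± 0.09 and -0.44 ± 0.09. Nhp2 had 218, 201 and 239 CPM and 189, 184 and 222 CPM, at -0.44 ± 0.09 and -0.58 ± 0.09. In all 3 genes each inhibitor library lay below each primed one.

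Rrp9 stood at 77, 72.2 and 62.3 CPM with 25 µM and 62.1, 78.4 and 67 CPM with 50 µM (-0.55 ± 0.11 and -0.57 ± 0.11 against primed). Pes1 stood at 135, 114 and 114 CPM and 122, 114 and 119.5 CPM (-0.51 ± 0.09 and -0.54 ± 0.09), and Rrp1b at 153, 138 and 153 CPM and 138, 141 and 128 CPM (-0.33 ± 0.09 and -0.45 ± 0.09). Ddx21 had 642, 512 and 536 CPM and 679, 580.5 and 539.9 CPM (-0.52 ± 0.12 and -0.43 ± 0.12). These 4 were called lower at both doses.

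Rrp12 was lowest at 25 µM, with 36.1, 32.9 and 31 CPM, a log2 fold change of -0.67 ± 0.12 against primed (adjusted p = 7.92e-05), and had 38.9, 46.9 and 35.9 CPM at 50 µM (-0.39 ± 0.12). Noc2l was called lower than primed at both doses (-0.38 ± 0.09 and -0.55 ± 0.09), as was Wdr12 (-0.30 ± 0.08 and -0.38 ± 0.08). Ncl (mean CPM of 3889 and 4002, against 5057 in primed cells) and Noc3l (69.8 and 70.6, against 86.1) were also called lower at both doses. Wdr43 and Nop14 were called lower at 25 µM, and Polr1b at 50 µM. Apart from Rrp12, none of these genes was called in 2i alone. Of those called in 2i, Nop16 was called lower at both doses, and Nolc1 and Bop1 at 25 µM. Nob1 was called at -0.47 ± 0.11 and -0.32 ± 0.11, the latter not without primed replicate 3 or 50 µM replicate 2. Npm1 was called at both doses (-0.28 ± 0.08 and -0.34 ± 0.08), with 5498, 5579 and 5493 CPM at 50 µM. Of the abundant genes not called against primed, Dkc1 had -0.01 and 0.06, Gnl3 -0.36 and -0.16, Tcof1 -0.06 and -0.08 and Nop58 -0.14 and 0.07. Gnl3 at 25 µM was called with only the libraries numbered 2 and 3 (-0.36, adjusted p = 0.00516), and its log2 differences within numbers 1, 2 and 3 were -0.35, -0.46 and -0.25. With the same libraries Utp15 was called lower at 25 µM (adjusted p = 0.0234) and Nop16 was not (0.0569), and at 50 µM Wdr43 (-0.44, adjusted p = 8.63e-04) and Nop14 (-0.30, adjusted p = 0.0181) were called lower.

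At 50 µM, Bop1, Nop58, Gar1, Utp15, Polr1c and Nolc1 were not called against primed cells, with log2 fold changes of -0.10 ± 0.12, 0.07 ± 0.10, 0.01 ± 0.10, -0.04 ± 0.10, -0.13 ± 0.09 and -0.22 ± 0.15, though all 6 were called lower in 2i alone. Each range at 50 µM overlapped the primed range. Whether the change from primed differed between 2i and 2i with 50 µM is given by the comparison of those groups, in which 3 of these 6 genes, Bop1, Nop58 and Gar1, were called. Of the other biogenesis genes, 68 of 137 fell and 5 rose at 25 µM against primed, and 62 fell and 8 rose at 50 µM, among them Ebna1bp2 (-0.81 and -0.76), Wdr36 (-0.61 and -0.76), Exosc7 (-1.15 at 25 µM) and Utp11 (-0.62 at 50 µM), and among those higher Xrn2 (0.67 and 0.69), Ccdc86 (0.39 and 0.46), Ttf1 (0.37 at 25 µM) and Ubtf (0.48 at 50 µM).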

How the data were processed

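Counts per gene from 12 libraries were used as the authors deposited them, 1 table per library with 56805 features; the sources used here do not name the program that counted reads or its strand setting. Per the submitters' processing notes, STAR and DESeq2 1.32.0 were used with GRCm38 (mm10), and per the labels' protocols libraries were made with oligo-dT priming and sequenced on a NextSeq 550. The 114 spike-in features (2 counts in all) were left out. Gene IDs were matched to symbols through GENCODE, and 52073 of 56691 matched, with 98.41% of counts. Genes were filtered with filterByExpr and tested with edgeR 4.0.16 in R 4.3.3 (TMM, robust quasi-likelihood, all 12 libraries in 1 fit, group as the single term), with Benjamini-Hochberg adjustment over 13230 genes and a call at 0.05. The SE is the log2 fold change divided by the root of F. Log2 levels used a prior count of 2. Alternatives were DESeq2 1.42.0, limma 3.58.1 (voom), other scaling, no filter, the 6 libraries alone, a replicate block and each library left out. The test was checked on simulated counts.

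Replicate numbers come from the titles, which do not say what they mark. Deviations from the group means (log2 CPM, genes tested) of same-numbered libraries correlated at 0.155 to 0.314 between 2i and 25 µM, 0.115 to 0.249 between 2i and 50 µM and 0.134 to 0.286 between the doses, so numbers were taken as pairing these groups. With primed cells the correlations ran from 0.091 to 0.244 for 2i, 0.012 to 0.163 for 25 µM and 0.051 to 0.175 for 50 µM. For 2i each exceeded every correlation between unlike numbers (-0.168 to 0.064). No pairing with primed cells was assumed in the main fit, and the replicate block is given as an alternative.

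The genes and lists were chosen with earlier results of these data known. All 36 are accounted for. Per comparison, up to 10 called genes with the smallest p have full values, up to 4 uncalled genes with the highest level are given by fold change and SE, and from the list of other biogenesis genes up to 3 in each direction are named. Exon overlaps and shared 50-base words (at least 100 in the last 600 bases of a transcript) were searched in GENCODE.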

Additional observations from a re-analysis of the deposited data

How the results depend on the processing

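Counting error, 3 libraries a group and library 1 of each group limit these results, and TMM-scaled CPM cannot show a change in total RNA per cell. In 2i against primed, 10 to 19 genes were called lower as single libraries were left out, with the lowest number without 2i replicate 2. Over all genes 17.1% to 18.7% were called lower in these fits. With a replicate block 22 were called lower, beside 24.0% of all genes, though the main fit assumed no pairing in any comparison. At 50 µM against 2i, 0 to 2 genes were called higher as single libraries were left out (0 without 50 µM replicate 3), and 6 with the replicate block. The shares of all genes were 3.73% to 5.49% and 12.1%. The number called lower in that comparison was 2 with size-factor scaling, 3 with library totals, 3 with the replicate block, 2 with DESeq2, 1 to 2 as single libraries were left out, and 2 with only the libraries numbered 2 and 3, an alternative chosen after seeing the data. Over all genes these fits called 5.26% to 12.4% lower. With the replicate block, 1 gene (Nop58) was called higher at 50 µM than at 25 µM. For 25 µM against primed cells, the fit with the block called 1 large-subunit factor higher and 23 genes lower, beside 25.0% and 24.4% of all genes. At 50 µM against 2i the median of the 36 genes was 0.02 and became -0.04 with library totals, which shifted the median of all genes to -0.06, and -0.03 without 50 µM replicate 1. Among the called genes with the smallest p, up to 10 per comparison, none turned its direction under any alternative run. The cause of these changes was not tested.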
